A study of Mus musculus with 6 samples.

Results

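The nuclear-encoded genes of the mitochondrial respiratory chain and ATP synthase were followed in mouse colon with chronic colitis and in control colon. Members were taken by symbol alone, as every gene row whose name began with Nduf, Uqcr, Atp5 or Cox4 to Cox8, or was Sdha, Sdhb, Sdhc or Sdhd, with pseudogene names left out. This gave 92 of 24421 gene rows: 45 named for complex I, 4 for complex II, 8 for complex III, 18 for complex IV and 17 for complex V. The symbols also take in assembly factors (names in Ndufaf) and Atp5s and Atp5sl, which are not subunits. The series was set up to ask whether acetylation of lysine 27 on histone H3 has a role in gut inflammation, and its RNA sequencing is described here. The 3 DSS samples were colon tissue of C57BL/6 mice in which chronic colitis had been brought on by dextran sulfate sodium, a polymer that damages the colonic lining, and the 3 control samples were colon tissue of the same strain. All 6 samples carried an age label of 7 weeks. Levels are FPKM, fragments scaled by transcript length and by library size, which allow levels of different genes to be compared per length.

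The chain passes electrons from NADH (complex I) and succinate (complex II) through ubiquinone to complex III, then through cytochrome c to complex IV and oxygen, and complex V uses the proton gradient so made to form ATP. Most subunits are encoded in the nucleus and imported, while a core of complexes I, III, IV and V is encoded by mitochondrial DNA. Mature colonocytes are known to burn butyrate from bacterial fermentation through this chain, whereas neutrophils hold few mitochondria and live mainly on glycolysis.

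The members were among the most abundant transcripts of the tissue, and few of them passed the test between the groups. Their summed FPKM was 37843, 41473 and 38265 in DSS 1, 2 and 3, against 32449, 37335 and 37184 in control 1, 2 and 3, with no overlap. The sum made up 5.82, 6.12 and 6.08% of all FPKM in DSS 1, 2 and 3, against 5.32, 5.85 and 5.85% in control 1, 2 and 3. As a share the groups overlapped. Of the 92 members, 68 had a mean of at least 100 FPKM and 10 a mean of at least 1000 FPKM. In all, 88 members reached 1 FPKM in at least 3 samples and were tested, and the 4 others (Ndufa4l2, Cox6a2, Cox7b2 and Cox8c) are muscle, testis or otherwise restricted relatives of abundant subunits that were at or near 0. The median log2 difference of the 88 tested members, DSS minus control on the log2(FPKM + 1) scale, was 0.01, with 44 members above 0 and 44 below, and -0.14 to -0.018 under the 4 other scalings. Among all 12348 tested genes the median was 0.13 and 63.7% lay above 0, so changes are read against that shift. The middle 50% of members spanned 0.49 log2 units, against 0.55 for all tested genes.

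Of the 88 tested members, 4 passed the test (limma, Benjamini-Hochberg adjusted p under 0.05 over all tested genes), which is 4.55%, beside 8.9% of all tested genes. Uqcrq and Ndufs4 were higher in DSS colon, and Sdhb and Cox7a1 were lower, which is 2.27% of members in each direction. Over all tested genes 6.34% were called higher and 2.56% lower. The split moved with the processing, to 1 higher and 8 lower under upper-quartile scaling, 1 and 10 under median-of-ratios scaling, and 9 and 9 with sample quality weights. Of all 12348 tested genes, these settings called 544 higher and 467 lower, 529 and 513, and 1839 and 769 (8.19%, 8.44% and 21.1% together). No member was called without DSS 3, without control 2 or without control 3. Those fits called 2.81%, 2.05% and 2.27% of all their tested genes. All 3 DSS samples lay above all 3 controls for 22 members (25%) and below them for 11 members (12.5%), beside 25.6% and 9.51% of all tested genes. At an unadjusted p under 0.05, 19 members were higher and 12 lower, shares of 21.6% and 13.6% beside 20.3% and 8% of all tested genes. Only Cox7a1 differed by more than 1 log2 unit, whereas 8.63% of all tested genes did. Whether each sample is another animal is not labelled, so the p-values rest on how far these 6 samples vary, which could be technical variation only.

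**Figure D1:**
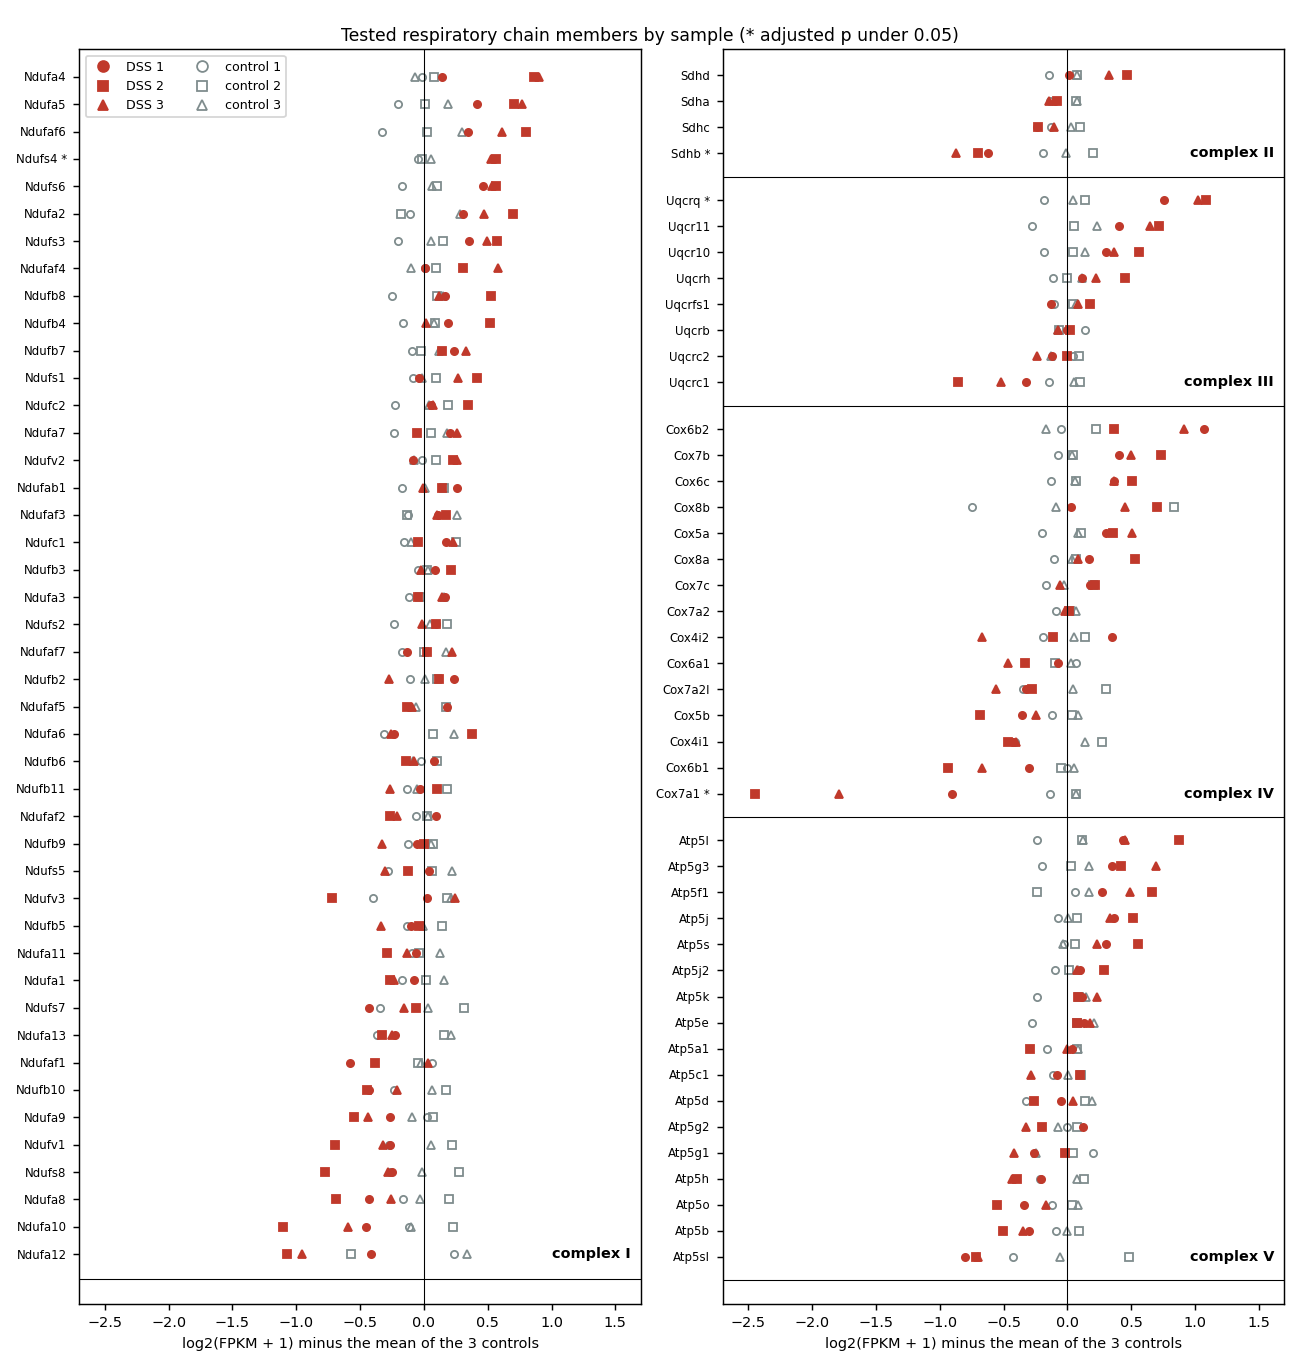
Each row is a tested member and each point a sample, placed at its log2(FPKM + 1) minus the mean of the 3 controls (filled red for DSS, open grey for control; circle, square and triangle for replicates 1, 2 and 3), with members ordered within each complex by their difference. Most rows lie within 0.5 log2 units of 0, Cox7a1 reaches -2.45 in DSS 2, and the starred members are the 4 that passed the test.

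Markers of several cell types differed between the groups. In bulk colon, fewer cells of a type and less RNA per cell cannot be told apart. Of 7 epithelial markers 2 were called lower and their summed FPKM was 4627 to 6247 in DSS samples, against 8498 to 11853 in controls. Of 6 markers of absorptive colonocytes 5 were tested and 4 were lower, and all 6 summed to 1372 to 1597 FPKM in DSS samples, against 4080.0 to 6108 FPKM in controls. The untested one, Slc51a, had 0, 101.2 and 24.4 FPKM in DSS 1, 2 and 3, against at most 0.129 FPKM in controls. All 6 neutrophil markers were higher, with sums of 4090.3 to 6964 FPKM in DSS samples, against 6.69 to 29.5 FPKM in controls. Smooth muscle markers summed to 1732, 1166 and 3298 FPKM in DSS 1, 2 and 3, against 3477 to 4409 FPKM in controls, and none of 6 passed the test. Of 6 goblet cell markers 1 was called lower, while 2 lay above 0 and 4 below. The 2 above 0, Muc2 and Spdef, had log2 differences of 1.17 and 1.03 and did not pass the test. Of 5 leukocyte markers 2 were called higher. The epithelial markers were abundant in every sample, which fits the colon label. The part of these cell types in the results was not tested. DSS 1 lay nearer the controls than DSS 2 and DSS 3 did, at -19.0, -51.2 and -47.5 on a first principal component that held 59.0% of the variance and placed the controls at 38.1 to 39.9.

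**Figure D2:**
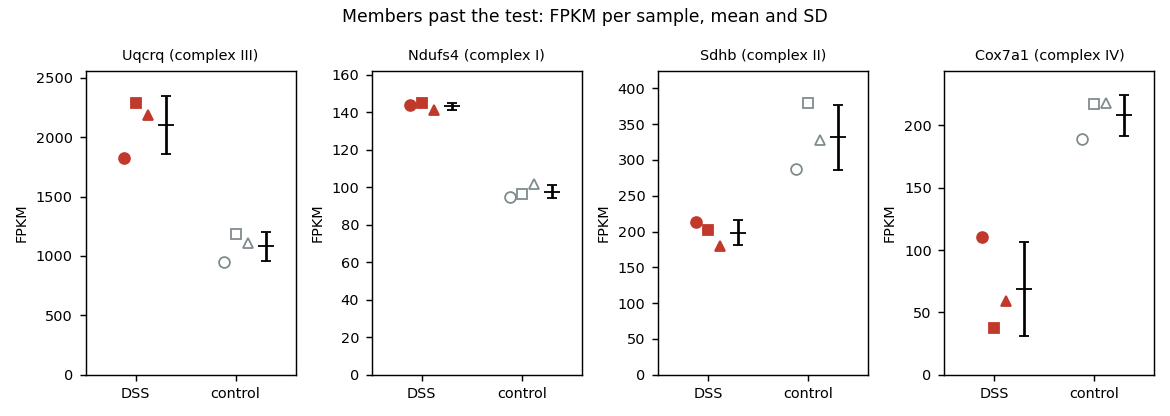
FPKM of the 4 members that passed the test, one panel each, with DSS samples left (filled) and control samples right (open), and the mean with its SD beside each group. In each panel the groups do not overlap, and the DSS samples lie above the controls for Uqcrq and Ndufs4 and below them for Sdhb and Cox7a1.

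Promoters were read for motifs of factors known to act on respiratory chain genes. RefSeq windows of 250 bases before to 50 after each start (GRCm38.p6) matched 76 of 92 members. Each motif was sought as exact letters on both strands: GCGCA, any 1 base and GCGC for NRF1, CCGGAAG for GABPA, TCAAGGTCA for ERR receptors and AAGATGGC for YY1, none of which holds another. Windows of members held the NRF1 letters in 23.7% of cases, against 4.78% of all 27025 promoter windows and 10.3% of 9754 windows of tested genes. The GABPA letters stood in 21.1% of member windows, against 9.12% and 18.4%, the ERR letters in 2.63%, against 0.407% and 0.236%, and the YY1 letters in 13.2%, against 2.88% and 4.73%. Of the members with a difference above 0, 7 of 38 had the NRF1 letters, 9 the GABPA, 2 the ERR and 7 the YY1 letters, and of those below 0, 11 of 37, 7, 0 and 3. A match describes these letters and is not shown to be a binding site.

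Windows are printed for 3 called members and for the complex III pair that lay in opposite directions, Uqcr11 and Uqcrc1, with capitals for motif letters and each read 5′ to 3′ along the gene. The regions are chr13:114388045-114388344 (minus strand) for Ndufs4, chr4:140961021-140961320 (plus) for Sdhb, chr7:30183921-30184220 (plus) for Cox7a1, chr10:80406772-80407071 (minus) for Uqcr11 and chr9:108936398-108936697 (plus) for Uqcrc1. The capitals mark the YY1 letters in Ndufs4, the GABPA letters in Sdhb and Uqcr11, and the NRF1 letters at 2 places in Uqcrc1. The Cox7a1 window holds none of the 4 motifs.
Ndufs4: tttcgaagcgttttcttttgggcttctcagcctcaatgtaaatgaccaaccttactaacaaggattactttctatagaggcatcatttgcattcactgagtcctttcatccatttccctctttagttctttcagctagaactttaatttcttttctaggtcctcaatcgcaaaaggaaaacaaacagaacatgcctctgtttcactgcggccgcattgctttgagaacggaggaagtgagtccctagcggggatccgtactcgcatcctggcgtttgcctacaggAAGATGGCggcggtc
Sdhb: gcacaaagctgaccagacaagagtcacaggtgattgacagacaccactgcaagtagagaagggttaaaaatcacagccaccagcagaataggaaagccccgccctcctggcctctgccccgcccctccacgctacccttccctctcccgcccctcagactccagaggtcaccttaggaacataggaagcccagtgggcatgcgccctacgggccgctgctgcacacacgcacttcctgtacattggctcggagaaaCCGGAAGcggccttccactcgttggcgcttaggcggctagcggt
Cox7a1: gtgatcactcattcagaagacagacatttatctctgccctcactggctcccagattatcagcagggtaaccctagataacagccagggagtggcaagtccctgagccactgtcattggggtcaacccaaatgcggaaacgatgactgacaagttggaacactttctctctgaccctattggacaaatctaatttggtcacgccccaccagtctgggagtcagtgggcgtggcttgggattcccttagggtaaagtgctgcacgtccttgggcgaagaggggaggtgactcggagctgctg
Uqcr11: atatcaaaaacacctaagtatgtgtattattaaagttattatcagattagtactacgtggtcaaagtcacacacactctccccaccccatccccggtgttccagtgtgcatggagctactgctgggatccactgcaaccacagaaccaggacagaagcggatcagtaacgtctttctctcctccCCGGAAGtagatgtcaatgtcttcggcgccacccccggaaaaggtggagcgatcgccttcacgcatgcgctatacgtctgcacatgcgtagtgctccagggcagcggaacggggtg
Uqcrc1: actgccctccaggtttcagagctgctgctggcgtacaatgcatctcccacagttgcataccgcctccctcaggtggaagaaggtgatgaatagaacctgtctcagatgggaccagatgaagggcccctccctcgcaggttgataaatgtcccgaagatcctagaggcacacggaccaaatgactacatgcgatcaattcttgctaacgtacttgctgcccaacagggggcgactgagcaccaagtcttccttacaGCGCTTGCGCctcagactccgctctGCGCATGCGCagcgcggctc

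Complex I, the NADH dehydrogenase, had 44 tested members, and 1 of them, Ndufs4, passed the test. Ndufs4 is an accessory subunit next to the NADH-oxidising module whose loss in mice gives a fatal brain disease. It had 144, 145 and 141 FPKM in DSS 1, 2 and 3, against 94.7, 96.6 and 102 FPKM in control 1, 2 and 3. The DSS samples lay within 4 FPKM of each other and well above every control, and the log2 difference was 0.55 ± 0.12 (SE, limma adjusted p = 0.0352). The gene lies on the minus strand at chr13:114287795-114388258 (GRCm38). The call was lost in 13 of 19 alternatives, among them each of the 4 other scalings and each fit without 1 sample, with an adjusted p of up to 0.130.

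Other complex I subunits with small p-values missed the threshold. Ndufs6, a zinc-binding accessory subunit of the peripheral arm, had 337, 361 and 353 FPKM in DSS samples, against 217, 262 and 255 FPKM in controls (log2 difference 0.52 ± 0.13 SE, limma adjusted p = 0.0552). Ndufa5, another accessory subunit of that arm, had 311, 380.4 and 396 FPKM in DSS samples, against 202, 234 and 266 FPKM in controls (log2 difference 0.63 ± 0.16 SE, limma adjusted p = 0.0558). Both genes had groups that did not overlap. Ndufs6 has a near-identical pseudogene copy, Ndufs6b, so its reads may be shared with it, and it overlaps Mrpl36 on the other strand. Ndufa10, an accessory subunit of the membrane arm, lay the other way, at 48.7, 30.7 and 44.0 FPKM in DSS samples and 61.6, 78.5 and 62.3 FPKM in controls (log2 difference -0.72 ± 0.21 SE, limma adjusted p = 0.0718). It passed the test under upper-quartile, median-of-ratios and quantile scaling.

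The most abundant complex I members did not pass the test. Ndufa6, an accessory subunit of the peripheral arm, had 764, 1167 and 754 FPKM in DSS samples, against 724, 948 and 1062 FPKM in controls, with overlapping groups. Ndufb9, of the membrane arm, averaged 583 ± 68.5 FPKM in DSS samples and 635 ± 48.0 FPKM in the controls (SD, n = 3 each). Ndufa4, which was named for complex I and is now known as a cytochrome c oxidase subunit, had 752, 1242 and 1277 FPKM in DSS 1, 2 and 3, against 676, 721 and 649 FPKM in control samples. DSS 1 lay near the controls and DSS 2 and DSS 3 well above them, and the difference did not pass (log2 difference 0.64 ± 0.22 SE, limma adjusted p = 0.111). Its restricted relative Ndufa4l2 reached at most 1.57 FPKM in DSS 3 and 0.676 FPKM in control 2. By role, 7 core subunits had a median log2 difference of 0.06 with none called, 30 accessory subunits one of -0.01 with 1 called higher, and 7 assembly factors one of 0.04 with none called.

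Ndufs5, a small accessory subunit, was nearly missing while a copy of it was abundant. It was listed at 2.35, 2.00 and 1.64 FPKM in DSS samples and at 1.68, 2.41 and 2.81 FPKM in controls, far below its partners in the same complex. Its processed pseudogene BC002163 (chr16:42955631-42955949, GRCm38), a near-identical copy, held 230.1, 281 and 260 FPKM in DSS samples and 166, 192 and 202 FPKM in controls. Whether reads of Ndufs5 were assigned to the copy was not tested. Groups did not overlap for the copy, which did not pass the test (log2 difference 0.46 ± 0.15 SE, limma adjusted p = 0.0942). In all, 22 of 92 members had such a copy, with identity of 95% or higher along 200 bases or more, and their values are uncertain. None of the 4 members called has one. Exons of 32 members overlap another gene, 28 of them on the other strand, and strand was not recorded.

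Complex II, succinate dehydrogenase, has no subunit encoded by mitochondrial DNA, and 1 of its 4 genes, Sdhb, passed the test. Sdhb, the iron-sulfur subunit that carries electrons from the flavin to ubiquinone, had 214, 203 and 179.6 FPKM in DSS 1, 2 and 3, against 288, 379 and 327 FPKM in control 1, 2 and 3. Every DSS sample lay below every control (log2 difference -0.73 ± 0.15 SE, limma adjusted p = 0.0308), at 0.599 times the control mean. Sdha, the flavoprotein, averaged 116 ± 2.38 FPKM in DSS samples and 125 ± 10.3 FPKM in the controls. Sdhc and Sdhd, the membrane anchors, had log2 differences of -0.19 ± 0.13 and 0.27 ± 0.16 (SE), and none of these 3 genes passed the test (limma adjusted p = 0.629, 0.379 and 0.320). In DSS 1, 2 and 3 Sdhd lay at 339, 467 and 424 FPKM, against 304, 354 and 355 FPKM in control samples, so the groups overlapped. Sdhb lies on the plus strand at chr4:140961203-140979193. It kept its direction in all 19 alternatives, and those that ended its call included the fits without DSS 2, DSS 3, control 2 or control 3 and the one with no filter on low values (adjusted p up to 0.120).

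Complex III, which passes electrons from ubiquinol to cytochrome c, had 1 of 8 members called, Uqcrq. Uqcrq, a small subunit bound next to cytochrome b, had 1822, 2286 and 2189.7 FPKM in DSS 1, 2 and 3, against 946, 1188 and 1111 FPKM in control 1, 2 and 3. It was 1.94 times the control mean with no overlap between the groups (log2 difference 0.96 ± 0.16 SE, limma adjusted p = 0.0135), the smallest adjusted p of any member. Uqcrq lies on the minus strand at chr11:53427922-53430831. It was called under every scaling, filter and pseudocount tried, and was not called without DSS 3, control 2 or control 3, with an adjusted p of up to 0.0650.

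The other accessory subunits of complex III mostly lay higher in DSS as well. Uqcr11, the smallest subunit, had 681, 847 and 807 FPKM in DSS samples, against 424, 533 and 605 FPKM in controls (log2 difference 0.59 ± 0.17 SE, limma adjusted p = 0.0796). Uqcr10 had 1181, 1413 and 1239 FPKM in DSS samples, against 844, 991 and 1055 FPKM in controls (log2 difference 0.41 ± 0.15 SE, limma adjusted p = 0.125). Uqcrh, the hinge protein beside cytochrome c1, had 1474, 1858 and 1583 FPKM in DSS samples, against 1256, 1358 and 1469.5 FPKM in controls (log2 difference 0.26 ± 0.15 SE, limma adjusted p = 0.280). In these 3 genes the groups did not overlap, though none passed the test, and with Uqcrq they make 4 of the 5 accessory subunits, all 4 above 0 under each scaling. The fifth, Uqcrb, averaged 860.3 ± 29.8 FPKM in DSS samples and 873 ± 74.0 FPKM in the controls. It has 3 near-identical copies, so its values are uncertain. The 5 had a median log2 difference of 0.41, beside 0.13 for all tested genes, of which 25.6% had every DSS sample above every control. All 5 are short, with 168 to 333 coding bases. The 448 tested genes of up to 348 coding bases had a median of 0.29, and 176 of them had every DSS sample above every control. With the coding-length trend removed, chosen after seeing the data, the 8 complex III members had a median of -0.027, against 0.15 before. The part of coding length was not tested.

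Uqcrc1, a core protein on the matrix side, lay lower instead. It had 134, 92.4 and 117 FPKM in DSS 1, 2 and 3, against 152, 179.6 and 174 FPKM in control samples. The groups did not overlap and the difference missed the threshold (log2 difference -0.57 ± 0.17 SE, limma adjusted p = 0.0857), while upper-quartile and median-of-ratios scaling brought it past the test. The other core protein, Uqcrc2, averaged 297 ± 24.2 FPKM in DSS samples and 323 ± 25.6 FPKM in the controls, and Uqcrfs1, the Rieske iron-sulfur protein, 311 ± 33.2 and 300.4 ± 18.9 FPKM (SD, n = 3 each). The 8 members together summed to 6732, 8044 and 7352 FPKM in DSS 1, 2 and 3, against 5191, 5734 and 5850 FPKM in control samples.

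Complex IV, cytochrome c oxidase, held the member with the widest difference, Cox7a1. This gene encodes the subunit 7a isoform of heart and skeletal muscle, which is also made in smooth muscle and brown fat, and Cox7a2 encodes the isoform found in most cells. Cox7a1 had 110.4, 37.2 and 59.4 FPKM in DSS 1, 2 and 3, against 189, 217 and 218 FPKM in control 1, 2 and 3. All DSS samples lay below the controls, DSS 2 lowest, and the mean was 0.332 times that of control colon (log2 difference -1.71 ± 0.36 SE, limma adjusted p = 0.0315). Cox7a2 stayed within a narrow range, at 729, 737 and 720.1 FPKM in DSS samples and 686, 741 and 765 FPKM in controls. The share of Cox7a1 in the sum of both genes was 8.53 ± 4.25% in DSS samples and 22.1 ± 0.543% in the controls (SD, n = 3 each, two-sided exact permutation p = 0.1, the lowest that 3 against 3 samples can give). Cox7a1 lies on the plus strand at chr7:30184144-30186078. The alternatives that ended its call included the fits without DSS 3 or without any 1 control and the one with no filter on low values (adjusted p up to 0.118).

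Markers of the cells that could hold Cox7a1 are given beside it. The smooth muscle genes Des and Tagln had 81.6, 41.4 and 185 FPKM and 721, 489 and 1221 FPKM in DSS 1, 2 and 3, against 244 to 308 FPKM and 1428 to 1966 FPKM in controls, and neither passed the test. In DSS 3 Actg2, Cnn1 and Myh11 had 737, 518 and 153 FPKM, inside the control ranges of 628 to 816, 503 to 702 and 125 to 166 FPKM. Acta2 had 485 FPKM in DSS 3, below its controls at 550 to 744 FPKM. The median of the 6 smooth muscle markers lay at -1.26, -1.78 and -0.31 log2 units from the controls in DSS 1, 2 and 3, where Cox7a1 lay at -0.90, -2.45 and -1.79. DSS 2 lay lowest in both, while DSS 1 and DSS 3 stood in opposite order. The part of smooth muscle in the Cox7a1 difference was not tested. Of the striated muscle markers Mb and Myh4 were at 0 in every sample, and the list of 7 summed to 3.99 to 20.2 FPKM in DSS samples and 14.0 to 19.4 FPKM in controls. The brown fat gene Ucp1 was at 0 throughout, and Adipoq of white fat was called lower, at 0.302 ± 0.286 FPKM in DSS samples and 5.64 ± 0.589 FPKM in the controls. Pericyte markers lay the other way, with 2 of 5 called higher and sums of 62.5 to 82.7 FPKM in DSS samples, against 32.9 to 40.3 FPKM in controls.

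**Figure D3:**
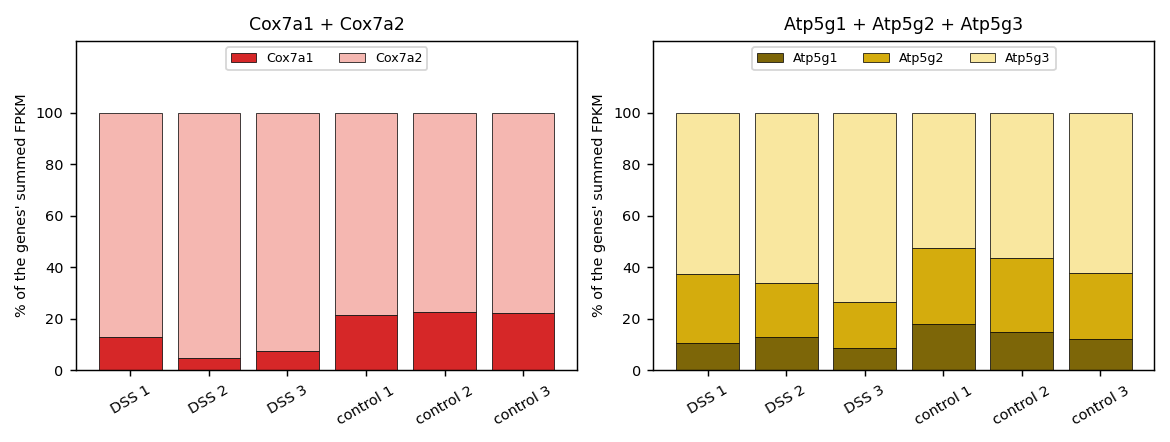
Share of each isoform gene in the summed FPKM of its family, 1 bar per sample, DSS samples left of controls. The Cox7a1 share is 4.80 to 13.2% in DSS samples and 21.6 to 22.7% in controls, and the Atp5g3 share is 62.7 to 73.2% in DSS samples and 52.3 to 62.0% in controls.

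The remaining complex IV subunits split between the directions without passing the test. Cox7b had 1299, 1629 and 1384 FPKM in DSS samples, against 929, 1009.7 and 1003 FPKM in controls (log2 difference 0.55 ± 0.14 SE, limma adjusted p = 0.0541), and Cox7b2 was at 0 in every sample. Cox6b1, which faces the intermembrane space, had 662, 428 and 513 FPKM in DSS samples, against 817, 787 and 849.6 FPKM in controls (log2 difference -0.64 ± 0.18 SE, limma adjusted p = 0.0685). Neither gene's groups overlapped. Cox6b1 passed the test with median-of-ratios and with upper-quartile scaling, and Cox7b under quantile normalization. Cox7b, Cox6c, Cox7c and Cox7a2l have near-identical copies, so their values are uncertain.

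Cox6c and Cox8a were the most abundant subunits of complex IV, with Cox7c next. Cox6c averaged 2196 ± 126 FPKM in DSS samples and 1652 ± 122 FPKM in the controls (limma adjusted p = 0.0933). Cox8a averaged 2002 ± 340.4 FPKM in DSS samples and 1657 ± 104 FPKM in the controls (limma adjusted p = 0.321). For both, every DSS sample lay above every control, by a narrow margin in Cox8a (1755 FPKM in DSS 3, against 1736 FPKM in control 2). Cox7c averaged 1455 ± 148 FPKM in DSS samples and 1348 ± 176 FPKM in the controls, with overlap. Cox4i1, the isoform of subunit 4 found in most tissues, had 611, 596 and 621 FPKM in DSS samples and 619.6, 992 and 906 FPKM in controls, where control 1 lay with the DSS samples. Its lung-type isoform Cox4i2 averaged 2.37 ± 1.15 FPKM in DSS samples and 2.58 ± 0.414 FPKM in the controls.

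Further isoforms were minor. Cox6b2, known from testis, averaged 8.0 ± 2.15 FPKM in DSS samples and 4.15 ± 0.741 FPKM in the controls (limma adjusted p = 0.0748), and its share of the Cox6b1 and Cox6b2 sum was 1.47 ± 0.182% in DSS samples and 0.507 ± 0.109% in the controls (two-sided exact permutation p = 0.1). Cox6a1 averaged 1065 ± 150.2 FPKM in DSS samples and 1294 ± 74.0 FPKM in the controls, and its heart isoform Cox6a2 was listed at 0 except for 0.353 FPKM in control 2. Cox8b, a muscle isoform, averaged 2.21 ± 0.735 FPKM in DSS samples and 1.66 ± 1.47 FPKM in the controls, and the testis isoform Cox8c was at 0 in every sample. Cox7a2l, a factor that joins complexes III and IV into supercomplexes, averaged 233 ± 23.9 FPKM in DSS samples and 309 ± 68.3 FPKM in the controls (limma adjusted p = 0.232).

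Complex V, the ATP synthase, had 17 tested members, counting Atp5s and Atp5sl, which are not subunits, and none passed the test. All DSS samples lay above the controls in 5 members, Atp5s among them, and below in 3, Atp5sl among them. Among all tested genes 25.6% had all DSS samples above the controls and 9.51% below. Atp5b, the catalytic beta subunit, had 891, 774 and 862 FPKM in DSS samples, against 1034, 1168 and 1095 FPKM in controls (log2 difference -0.38 ± 0.13 SE, limma adjusted p = 0.11). Atp5l and Atp5j, which lie outside the catalytic head, lay the other way, though the parts of the enzyme were mixed. With Atp5s and Atp5sl left out, of 5 head genes 1 lay above 0 and 4 below, and of 4 peripheral stalk genes 2 and 2. Of 3 other membrane genes 3 lay above 0, and of 3 genes of subunit c 1 lay above and 2 below. Atp5l, subunit g of the membrane part, had 1335, 1808 and 1349 FPKM in DSS samples, against 834, 1067 and 1073 FPKM in controls (log2 difference 0.59 ± 0.18 SE, limma adjusted p = 0.0858), with 9 near-identical copies in the genome. Atp5j, the coupling factor, had 686, 759 and 672 FPKM in DSS samples, against 505, 561 and 533 FPKM in controls (log2 difference 0.40 ± 0.13 SE, limma adjusted p = 0.0933), and its exons overlap Gabpa on the other strand. Groups did not overlap in any of these 3 genes. Atp5j2, subunit f, averaged 1483 ± 122 FPKM in DSS samples and 1333 ± 86.2 FPKM in the controls. Atp5sl, which is no subunit and is known from complex I assembly, averaged 7.30 ± 0.313 FPKM in DSS samples and 13.3 ± 4.57 FPKM in the controls (limma adjusted p = 0.0933).

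Subunit c, which forms the rotating ring, is made from 3 genes that give the same mature protein. Atp5g3 had 764, 805 and 970.4 FPKM in DSS samples, against 524, 613 and 676 FPKM in controls. The groups did not overlap and the difference did not pass the test (log2 difference 0.49 ± 0.16 SE, limma adjusted p = 0.103). Its share of the 3 genes was 67.3 ± 5.37% in DSS samples and 56.8 ± 4.88% in the controls (SD, n = 3 each, two-sided exact permutation p = 0.1). The margin was narrow, with an Atp5g3 share of 62.7% in DSS 1 and 62.0% in control 3. Atp5g1 averaged 136 ± 19.5 FPKM in DSS samples and 159.6 ± 24.3 FPKM in the controls, and Atp5g2 272 ± 44.5 and 297 ± 15.6 FPKM, with overlapping groups in both. Atp5g1 and Atp5g2 have near-identical copies, so their values and the shares are uncertain.

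Across the members, shorter genes lay higher in DSS than longer ones, a pattern chosen after the values were seen. Spearman's rho between coding length and log2 difference was -0.38 over the 88 tested members, a description across genes that share libraries and are not independent. It was -0.41, -0.37 and -0.28 in DSS 1, 2 and 3 taken singly, and 0.01, 0.21 and -0.15 for each control set against the other controls. The members up to 348 coding bases had a median log2 difference of 0.14, with 22 of 29 above 0. Those of 349 to 530 bases had a median of -0.11, with 11 of 30 above 0, and those over 530 bases one of -0.11, with 11 of 29 above 0. So the members' 2 longer bins lay level, below the shortest. In the same bins the medians declined from each bin to the next in all tested genes (0.29, 0.18 and 0.12). They also did in genes of the mitochondrial ribosome (0.46, 0.22 and 0.11, the first over 7 genes only) and of the cytosolic ribosome (0.29, 0.24 and -0.047). The bin edges were set from the members' own lengths, and the longest bin held 10588 of the 11906 tested genes with a coding length. Of all tested genes in the 3 bins, 331 of 448, 566 of 870 and 6656 of 10588 lay above 0. Over those 11906 genes rho was -0.038, against -0.35 in the mitochondrial and -0.45 in the cytosolic ribosome genes. The cytosolic set was taken by symbol and also holds the Rps6k kinases and Rps19bp1, which are not ribosomal proteins. Their part in its rho and medians was not tested. Whether the members' trend differs from that of other genes was not tested. Leaving out members with a near-identical copy gave a coefficient of -0.41 over 66 members. The part of coding length in the results above was not tested.

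**Figure D4:**
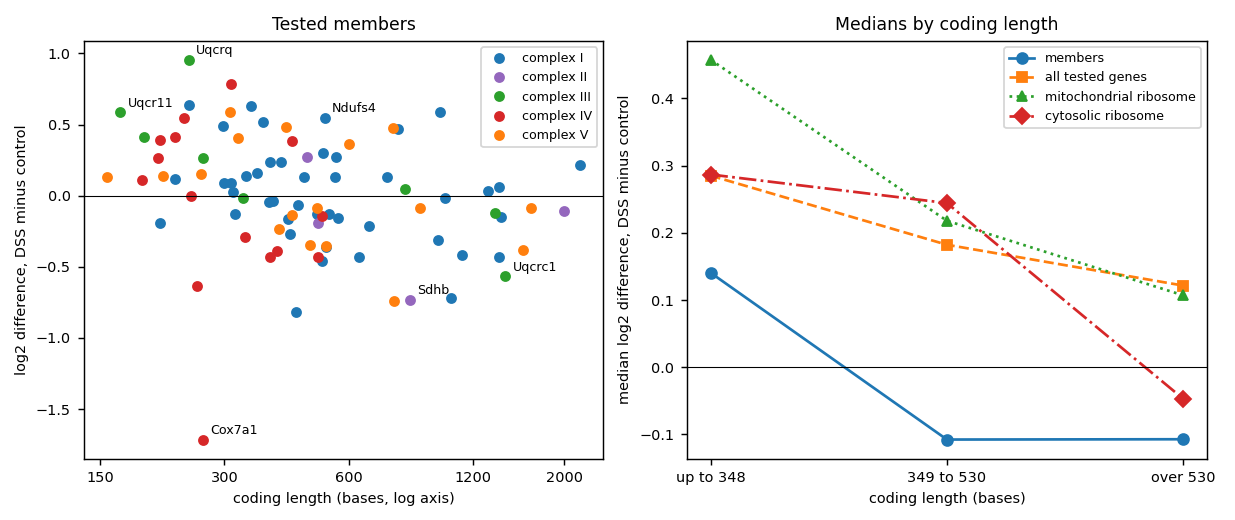
Left, log2 difference (DSS minus control) of each tested member against its coding length in bases on a log axis, coloured by complex; right, median log2 difference in 3 bins of coding length for the members (29, 30 and 29 genes), all tested genes, and the mitochondrial (7, 24 and 46 genes) and cytosolic (19, 32 and 37 genes) ribosome. The cytosolic set was taken by symbol and also holds the Rps6k kinases and Rps19bp1. The medians are 0.14, -0.11 and -0.11 for the members, 0.29, 0.18 and 0.12 for all tested genes, 0.46, 0.22 and 0.11 for the mitochondrial ribosome and 0.29, 0.24 and -0.047 for the cytosolic ribosome, and in each set the shortest bin has the highest median.

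Of 13 factors known to regulate genes of the chain, 1 was called higher and 1 lower. Yy1, a zinc-finger factor that binds many such promoters, had 45.4, 55.7 and 44.8 FPKM in DSS samples, against 26.9, 30.1 and 29.9 FPKM in controls (log2 difference 0.72 ± 0.15 SE, limma adjusted p = 0.0275). The part of Yy1 in the level of any member was not tested. Esrrg, an oestrogen-related receptor of oxidative tissues, was low throughout, at 0.341 ± 0.342 FPKM in DSS samples and 1.71 ± 0.287 FPKM in the controls (log2 difference -1.04 ± 0.22 SE, limma adjusted p = 0.0306). Ppargc1a, the coactivator best known for driving mitochondrial biogenesis, had 3.03, 5.35 and 3.67 FPKM in DSS samples and 1.42, 5.71 and 7.48 FPKM in controls, so the groups overlapped. Nrf1 averaged 7.41 ± 1.11 FPKM in DSS samples and 6.05 ± 0.692 FPKM in the controls, and Gabpa 9.15 ± 0.992 and 9.44 ± 0.144 FPKM, and neither passed the test.

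Genes beside the chain were set against the members. Of 7 genes for electron carriers and remaining subunits, 1 was called higher, all 7 lay above 0 and their median log2 difference was 0.45, beside 0.13 for all tested genes. Usmg5, a small subunit bound to ATP synthase, had 1726, 2631 and 2151 FPKM in DSS samples, against 1101, 1304 and 1298 FPKM in controls (log2 difference 0.80 ± 0.18 SE, limma adjusted p = 0.0402). None of 36 assembly factors of complexes I to V outside the members passed the test, with 7 higher and 0 lower at an unadjusted p under 0.05, beside 20.3% and 8% of all tested genes, and a median of 0.21. Of 17 genes of the citric acid cycle and pyruvate dehydrogenase, 0 were called higher and 1 lower, with a median of -0.13. That gene was Cs, citrate synthase, which forms citrate at the entry to the cycle, at 140.5, 70.7 and 111 FPKM in DSS samples, against 256, 235 and 243 FPKM in controls (log2 difference -1.23 ± 0.24 SE, limma adjusted p = 0.0246). The genes of the mitochondrial genome were not analysed here.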

How the data were processed

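RNA was sequenced from 6 samples of mouse colon in 2 groups of 3, taken from the sample titles. The authors deposited FPKM values per gene and sample, per the file headers. The submitters' processing notes name mm10 as the build and TopHat2 2.1.1, and how FPKM was computed, and with which annotation, is not given in the sources used here. A non-directional kit is named per the labels' protocols. Low values fell into no steps of single reads (the fullest bin of 0.02 log2 units held 1.55% of genes), which leaves depth unknown. A 0 or a low value can be a failed estimate, since Gapdh was listed at 0, 21.4 and 36.1 FPKM in DSS 1, 2 and 3. In control 1, 2 and 3 it was listed at 2.00, 0.117 and 0.145 FPKM.

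The 12348 genes at 1 FPKM or more in 3 or more samples were tested as log2(FPKM + 1) in limma 3.58.1 under R 4.3.3 (robust, with trend, two-sided, Benjamini-Hochberg adjusted over all of them, threshold 0.05), which understates changes of low genes. Values after ± are SDs unless named SE. Coordinates, coding lengths and copies (BLAST+ 2.17.0) are from GENCODE vM21 on GRCm38. Python 3.11.15 drew the figures with matplotlib 3.10.9.

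Members, gene lists and tests were chosen with earlier results of these data known. Named were every called member, the 3 most abundant members and the 3 with the smallest p of each complex, all isoform families, the 4 Sdh genes, members at 0 in a sample but at 1 FPKM or more in another, and, from each list of related genes (cell type markers aside), called genes up to 4 by p. Other genes described (Mrps18c, Rps19bp1, Ndufs5, BC002163, Ndufa10, Uqcrb, Uqcrc2, Uqcrfs1, the marker genes and the regulators not called) were chosen after their values were seen. Alternatives were other pseudocounts, filters, scalings and moderation, the replicate number as a block, and each sample left out. Removal of the coding-length trend and leaving out members with copies were chosen after seeing the data.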

Additional observations from a re-analysis of the deposited data

How the results depend on the processing

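Counts of called members depended on the processing. Against 2 higher and 2 lower with a median log2 difference of 0.01, TPM scaling gave 1, 2 and -0.0438, upper-quartile scaling 1, 8 and -0.12, median-of-ratios scaling 1, 10 and -0.14, quantile normalization 2, 3 and -0.0183, and sample quality weights 9, 9 and -0.0341. Of all tested genes 8.9% were called in the main fit, and 7.42%, 8.19%, 8.44%, 8.36% and 21.1% in these alternatives, in that order. Limma without trend and robust moderation gave 1 and 2, and no filter 2 and 0, with 8.62% and 4.13% of all tested genes called. Removing the coding-length trend, chosen after seeing the data, gave 1, 9 and -0.19, with 8.62% of all tested genes called. Leaving out members with copies, also chosen then, gave 2 and 2. Fits without 1 sample gave 0 to 4 higher, 0 to 5 lower and medians of -0.0491 to 0.0497, with 4 and 5 without DSS 1 and none without DSS 3, control 2 or control 3. Of all genes tested in those fits 2.05 to 13.0% were called, the most without DSS 1 and the fewest without control 2. The cause was not tested. Of all calls 71.2% were higher, and 50.8% under median-of-ratios scaling.

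Deviations from the group means correlated at r = 0.08, 0.13 and 0.003 between same-numbered DSS and control samples. Between samples of different number r was -0.11 to 0.034. Deviations from a mean of 3 samples are tied to each other, so these values cannot settle whether the numbers pair the samples. The main fit did not pair them. With the replicate block 1 member was called higher (Uqcrq) and 0 lower, so Ndufs4, Sdhb and Cox7a1 were not called.

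Some small differences changed sign. Median-of-ratios scaling gave -0.00497 for Atp5j2 and -0.0444 for Cox7c, and upper-quartile scaling -0.0220 for Cox7c. Removing the length trend gave -0.0872 for Atp5j2, -0.18 for Cox7c and -0.0155 for Cox8a. Without 1 sample Cox4i2 lay at -0.39 to 0.12, Cox7a2 at -0.0477 to 0.0301 and Ndufa6 at -0.25 to 0.0807. Depth is unknown, so what low counts limit cannot be stated.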

Other observations

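Protein synthesis and import genes of mitochondria were also measured. Of 77 mitochondrial ribosome genes 4 were called higher and 1 lower, with 60 above 0 and a median log2 difference of 0.17, beside 0.13 for all tested genes. Mrpl33, a small protein of the large subunit, averaged 359.9 ± 31.8 FPKM in DSS samples and 199 ± 15.9 FPKM in the controls (log2 difference 0.85 ± 0.14 SE, limma adjusted p = 0.0134). Mrpl20 averaged 352 ± 45.9 FPKM in DSS samples and 195 ± 11.9 FPKM in the controls, and Mrpl41 and Mrps18c were the other 2 higher genes. Mrps6 of the small subunit was the lower one, at 59.7 ± 15.4 FPKM in DSS samples and 125 ± 22.1 FPKM in the controls (log2 difference -1.07 ± 0.23 SE, limma adjusted p = 0.0330). Of 12 outer membrane and import genes 1 was called higher and 0 lower. It was Hspa9, the matrix chaperone that pulls precursors through the inner membrane, at 125 ± 13.2 FPKM in DSS samples and 78.9 ± 5.51 FPKM in the controls (log2 difference 0.65 ± 0.14 SE, limma adjusted p = 0.0335).

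Of 89 tested genes with symbols of cytosolic ribosomal proteins, 6 were called higher and 0 lower, with 23 higher and 4 lower at an unadjusted p under 0.05 (20.3% and 8% of all tested genes) and a median log2 difference of 0.12, close to the 0.13 of all tested genes. The symbols also take in the Rps6k kinases and Rps19bp1, which are not ribosomal proteins, and Rps19bp1 was 1 of the 6. Rplp2, a stalk protein, averaged 859 ± 71.1 FPKM in DSS samples and 443 ± 118 FPKM in the controls (log2 difference 0.99 ± 0.22 SE, limma adjusted p = 0.0344). Rpl22l1, a relative of Rpl22, averaged 703 ± 40.2 FPKM in DSS samples and 417 ± 16.1 FPKM in the controls. Rpl39 averaged 2994 ± 488 FPKM in DSS samples and 1830.4 ± 122 FPKM in the controls, and Rps27l, a relative of Rps27, 889.6 ± 49.97 FPKM in DSS samples and 622 ± 6.73 FPKM in the controls. Many of these genes have near-identical copies, so their values are uncertain.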
